A study of Saccharomyces cerevisiae with 9 samples.

Results

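Commercial dry active yeast was set against dried cells of the laboratory strain BY4743, 3 Affymetrix Yeast S98 arrays a side, 6 of the 9 arrays of the series. The 6 arrays were chosen by their titles, and all 9275 probe sets other than the 60 control probe sets were compared. The dried group was BY4743 (an S288C-derived diploid that lacks URA3, LEU2 and HIS3 on both chromosome sets and has 1 working copy each of LYS2 and MET17). It had been grown in YPD at 30 °C to an A600 of 0.8, resuspended in diluted YPD, dried for 42 h and then held at 20% relative humidity for 72 h. The commercial group was sold dry active yeast. Its labels carry the same protocol text as those of BY4743, so its strain, its culture before drying and its drying process are not given in the sources used here. Strain, culture and drying therefore differ together and cannot be told apart. The 3 arrays of growing BY4743, harvested at the same A600 and not dried, are set beside these 2 groups only as a reference for the level of a gene. Whether a group's arrays hold RNA of separate cultures is not stated, so the p-values rest on array-to-array spread that may be only technical.

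Saccharomyces cerevisiae can lose nearly all of its water and resume growth when water returns. Cells that survive drying are known for stores of trehalose and glycogen, for hydrophilins and heat shock proteins that keep proteins from aggregating, and for membranes rich in ergosterol, the sterol of fungi. Bakers' yeast for drying is generally raised with a slow feed of molasses sugar and ripened before drying, so that few cells are in the division cycle. This is background, and the culture of the commercial yeast measured here is unknown.

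Signals are quantile normalized intensities on a linear scale, and changes are log2 differences, commercial minus dried, with their standard error (SE) from a linear model (limma) of all 9 arrays. A change was called where its Benjamini-Hochberg adjusted p over the 9275 probe sets was under 0.05, and "higher" and "lower" are used below only of called changes. Values after ± are SD over 3 arrays (n = 3). Between 82.2% and 91.9% of the probe sets of an array lay above its background, which was 26.8 to 30.6 on the dried and 10.4 to 22.4 on the commercial arrays. The array profiles correlated at r of 0.823 to 0.835 between the groups and at 0.972 to 0.981 within a group (across probe sets, not independent replicates). The number of arrays limits the precision. Fewer cells with a transcript and less transcript per cell cannot be told apart in such bulk RNA. A low commercial reading can also come from a gene that is absent or diverged in that strain, which was not tested.

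Commercial yeast differed from dried BY4743 over most of the transcriptome. Of the 5656 named genes 1816 (32.1%) were higher and 2163 (38.2%) lower, with 858 (15.2%) and 1004 (17.8%) at least 2-fold, and 81 (1.43%) and 96 (1.7%) at least 8-fold (limma, adjusted p). Over all probe sets the shares were 33.1% higher and 33.6% lower, and the 2443 probe sets with no gene name were more often higher (34.9%) than lower (24.5%). The 2 groups did not overlap for 4347 of the 5656 genes. These values are the background for every count and separation of genes below. The median log2 change was -0.09 over all genes. Quantile normalization sets the middle of the changes near 0. After scaling each array to its spike-in controls the median of all probe sets was -1.08, and 767 were higher and 5288 lower. The spike-in controls as deposited read a mean log2 of 8.84, 9.2 and 8.25 on the dried arrays and 10.0, 10.0 and 10.01 on the commercial arrays (two-sided exact permutation test, p = 0.1, which is the lowest value possible for 3 arrays against 3). Measures of RNA integrity gave no single direction. In commercial cells the 3′ minus 5′ difference was smaller for ACT1 and larger for SPT15 and SRB4. The log2 difference between the 3′ and the 5′ probe set of ACT1 was 1.4 ± 0.17 in dried and 0.43 ± 0.1 in commercial cells, that of SPT15 was 1.63 ± 0.11 and 1.99 ± 0.11, and that of SRB4 was 1.48 ± 0.09 and 2.57 ± 0.38 (exact p = 0.1 for each). The part of the spike-in level or of RNA integrity in the results was not tested.

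**Figure D1:**
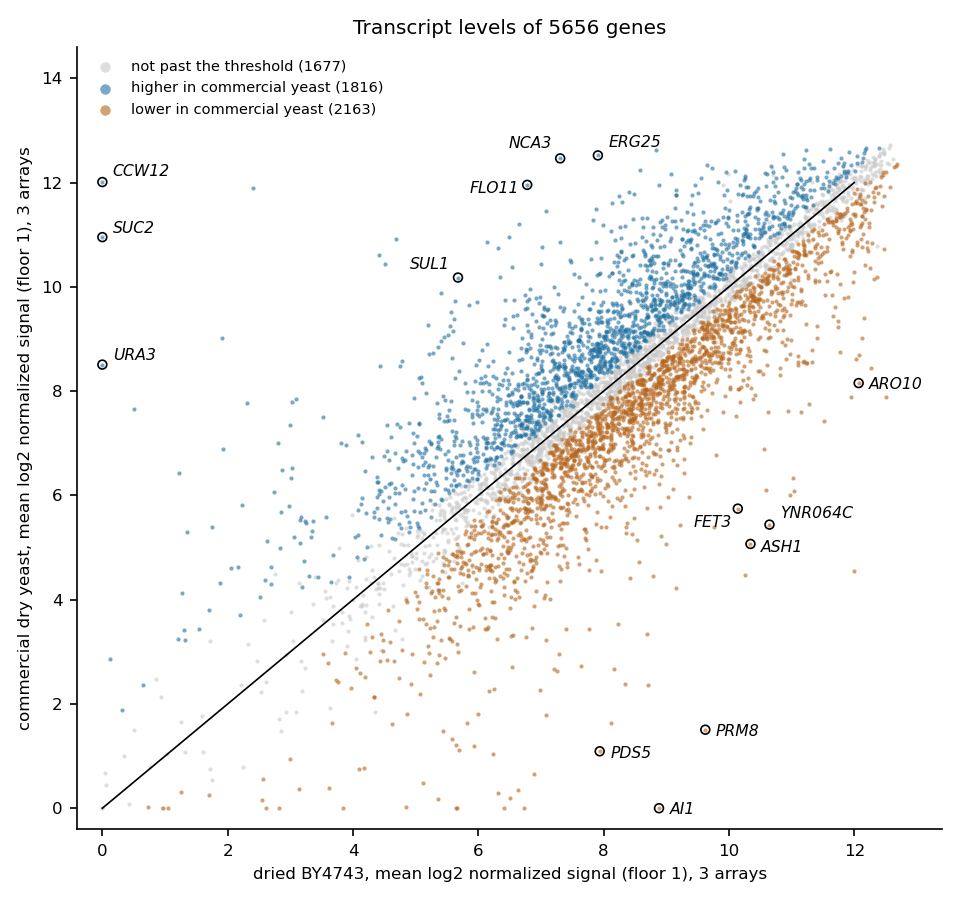
Each point is 1 of 5656 genes, placed by its mean log2 normalized signal over 3 dried BY4743 arrays (horizontal) and 3 commercial arrays (vertical), with signals under 1 set to 1. The 1816 genes higher in commercial yeast are blue, the 2163 lower ones brown and the other 1677 grey; the line marks equal levels, and 14 genes named in the text are circled.

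Gene groups differed in direction. Groups with many higher members included cytosolic ribosomal proteins (70 of 80 higher, 2 lower), sterol synthesis (21 of 26 higher, 2 lower), sucrose and maltose use (5 of 7 higher, 2 lower), ribosome assembly (51 of 82 higher, 11 lower) and desiccation-linked genes (11 of 18 higher, 1 lower), of which sterol synthesis, ribosome assembly and the desiccation list had a median below 0 with spike-in scaling. Groups with many lower members included daughter cell separation (10 of 12 lower, none higher), histones and DNA replication (35 of 46 lower, 3 higher), iron (23 of 33 lower, 5 higher) and nitrogen use with amino acid permeases (20 of 36 lower, 10 higher). Some groups lay closer to the shares over all genes. Peroxisome and fat use had 12 of 37 higher and 11 lower (median 0.08, and -1.05 with spike-in scaling), the cell wall 11 and 12 of 35, the proteasome 10 and 9 of 33, and mitochondrial ribosomal proteins 20 and 26 of 70. Measured from the median of all genes, sterol synthesis lay at 1.36 and 1.16 with quantile normalization and with spike-in scaling, ribosomal proteins at 1.86 and 1.7, and histones and replication at -1.43 and -1.26.

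**Figure D2:**
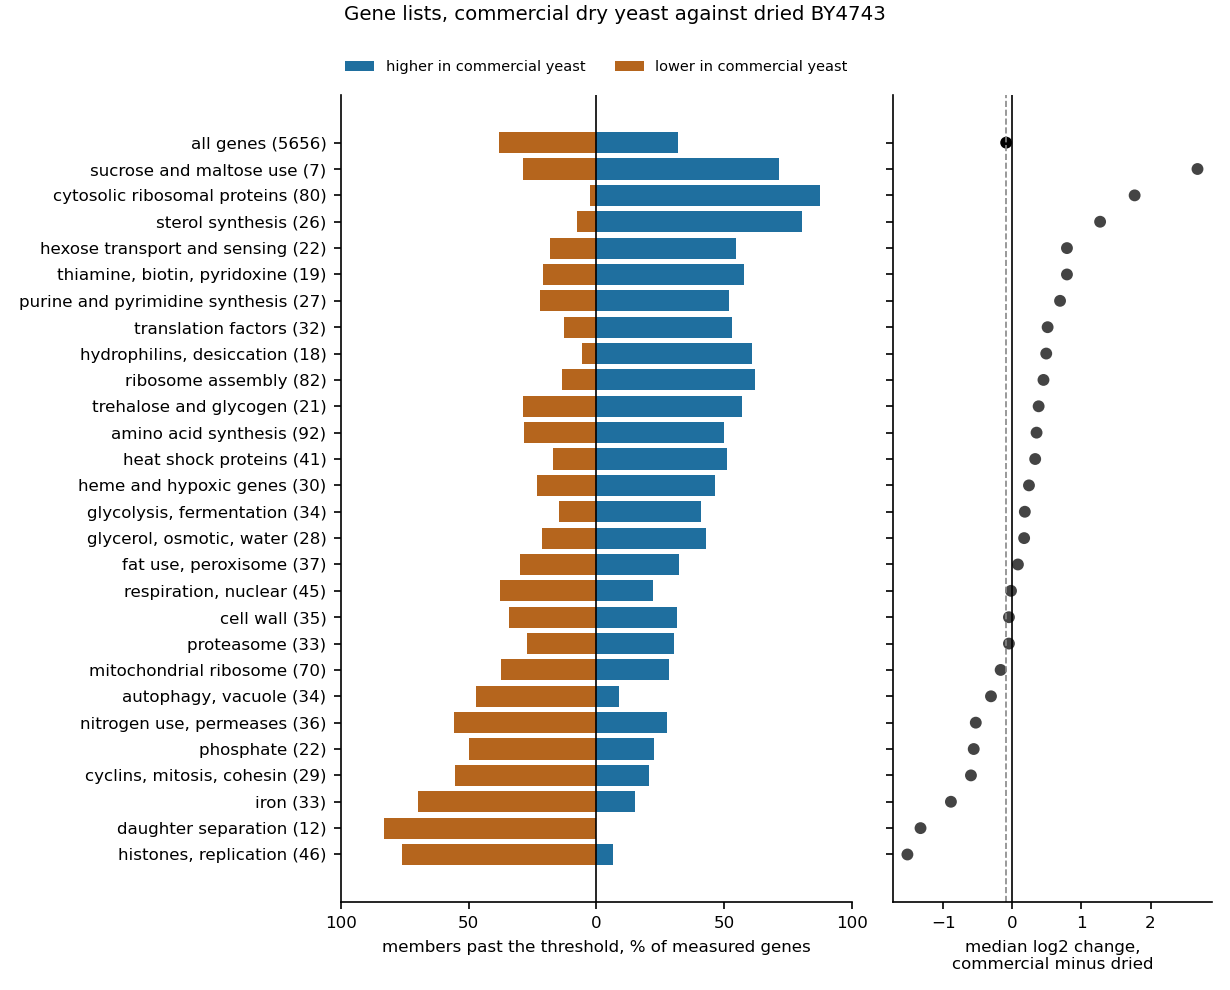
For 27 gene lists and all genes (number of measured genes in brackets), bars give the percent of members higher (blue) and lower (brown) in commercial yeast, and points give the median log2 change, commercial minus dried; the dashed line is the median of all genes, -0.09. Medians run from 2.68 for sucrose and maltose use to -1.52 for histones and replication; with spike-in scaling sucrose and maltose use and ribosomal proteins stay above 0 (1.62 and 0.4) and the other lists fall below it.

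The genotype of BY4743 gave a partial check of the labels. URA3, which makes the last step to uridine monophosphate, read 0.911, 0.933 and 0.767 on the dried and 359, 404 and 333 on the commercial arrays, at least 12.6-fold higher. LEU2, of leucine synthesis, read 14.2, 36.4 and 40.7 on the dried and 351, 353 and 446 on the commercial arrays, a log2 change of 3.79 (SE 0.372). The groups did not overlap for either gene, as for 4347 of all 5656 genes. In growing BY4743 URA3 was at background as well. LEU2 was above background there and on dried arrays 2 and 3, though the genotype lacks this gene. All 5 marker loci were higher in commercial yeast, with MET17, the sulfhydrylase that makes homocysteine, at 2.37 (SE 0.095), HIS3 at 1.5 (SE 0.13) and LYS2 at 1.05 (SE 0.218). The last turned to -0.23 with spike-in scaling. The HIS3 deletion of this strain family is partial, so its probes need not lie in the deleted part, and LYS2 and MET17 keep 1 copy in BY4743. All 5 marker loci were also lower in dried than in growing BY4743 (median -1.69), 2 groups with the same genotype. The part of the genotype in the changes of these loci was not tested.

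Some of the largest changes among genes above background on all 6 arrays were as follows. FLO11, the cell surface flocculin of adhesion and filamentous growth, read 120, 86.4 and 128 on the dried and 3896, 4144 and 3884 on the commercial arrays, 36.1-fold higher (adjusted p = 1.88e-07). NCA3, a protein of the SUN family linked to the mitochondrial ATP synthase, read 189, 151 and 139 against 5825, 5453 and 5674, 35.7-fold higher. GOR1, a glyoxylate reductase, rose from a dried mean of 72.9 ± 20.5 to 1866 ± 8.4, and SAC1, a phosphatase of phosphoinositides, from 49.7 ± 1.85 to 852 ± 32.9. These 4 genes were chosen among genes whose groups did not overlap, so their separation is no added support. The pheromone-regulated membrane protein gene PRM10 (log2 4.55, SE 0.2), the HSF-like factor gene MGA1 (4.08, SE 0.09) and TDA10 (3.85, SE 0.163) were also higher. On the other side, ASH1, the repressor of mating-type switching in daughter cells, read 1325, 1369 and 1209 on the dried and 27.1, 32.6 and 42.8 on the commercial arrays, 38.7-fold lower (adjusted p = 2.09e-07). YNR064C, an epoxide hydrolase, read 1570, 1563 and 1678 against 42.6, 51.3 and 37.4, 36.9-fold lower. It read 38.8 ± 5.58 in growing BY4743, so the dried BY4743 arrays were the high ones. SOM1, a subunit of the mitochondrial inner membrane peptidase, changed by -4.69 (SE 0.201), GEM1, a GTPase of mitochondrial distribution, changed by -4.35 (SE 0.17) and HSM3, a proteasome assembly chaperone, by -3.68 (SE 0.193). COS6, of a family of near-identical genes whose copies may share probes, changed by -4.96 (SE 0.378).

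Genes of the ergosterol pathway were higher as a group, most of all those of the steps from lanosterol to ergosterol (10 of 11 higher, none lower, median 2.53). The enzymes of these steps take methyl groups off lanosterol, then shift and add double bonds. ERG25, the C-4 methyl oxidase, read 246, 245 and 230 on the dried and 5851, 5825 and 5955 on the commercial arrays, a change of 4.61 (SE 0.066, adjusted p = 5.32e-09). Its partner ERG26, the C-3 dehydrogenase, read 24.2, 38.8 and 33.0 against 218, 264 and 221, a change of 2.9 (SE 0.171). ERG6, which adds the side chain methyl group, read 158, 163 and 155 against 1771, 1881 and 1912, a change of 3.55 (SE 0.177). These 3 genes were chosen for large called changes, so the small spread within each group beside the difference is no added support. ERG5, the C-22 desaturase, changed by 4.48 (SE 0.171), ERG3, the C-5 desaturase, by 2.6 (SE 0.102) and ERG11, the lanosterol demethylase that azole drugs inhibit, by 2.53 (SE 0.084). Growing BY4743 read 4726 ± 97 for ERG25 and 4699 ± 393 for ERG11, near the commercial 5877 ± 68.7 and 4326 ± 188, while the dried arrays were the low group. These 2 genes do not stand for the list. Against growing BY4743, 8 of the 11 genes from lanosterol to ergosterol were lower in commercial yeast and 2 higher (median -1.11). All 11 were lower in dried than in growing BY4743 (median -3.71). Of the 9 genes of the mevalonate and isoprenoid steps 7 were higher and 1 lower (median 0.85). HMG1, the main HMG-CoA reductase, changed by 1.44 (SE 0.096), its paralog HMG2 by -0.21 (SE 0.089, adjusted p = 0.0704), and IDI1, the isopentenyl diphosphate isomerase, was lower at -0.83 (SE 0.13). ERG7, which closes the rings of lanosterol, was lower at -0.24 (SE 0.085). The median of all 26 genes was 1.27, and -0.14 with spike-in scaling.

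Many sterol genes need heme and oxygen, and the oxygen-regulated genes were looked at beside them. Of 30 genes 14 were higher and 7 lower, with a median of 0.24 that turned to -0.95 with spike-in scaling. AAC3, the ADP/ATP carrier made when oxygen is short, was at background on the dried arrays (4.19, 3.29 and 4.04) and read 128, 113 and 114 on the commercial arrays, at least 4.09-fold higher. ANB1, the hypoxic form of translation factor eIF5A, read 32.1, 32.6 and 36.8 against 323, 332 and 272, a change of 3.19 (SE 0.103). The aerobic form, HYP2, read 4196 ± 263 and 3511 ± 138 (change -0.26, adjusted p = 0.137). HEM13, the coproporphyrinogen oxidase of heme synthesis that rises when oxygen is short, was at least 1.77-fold higher, and DAN1, an anaerobic wall mannoprotein, changed by 2.0 (SE 0.188). ROX1, the repressor of hypoxic genes, was lower at -0.58 (SE 0.098). In growing BY4743 AAC3 read 165 ± 47.4, ANB1 592 ± 26.9 and HEM13 564 ± 61.8, against commercial means of 118, 309 and 51.3. ELO1, an elongase of medium-chain fatty acids, changed by 2.89 (SE 0.12) and led a list of lipid genes that was otherwise split, with 8 of 25 higher and 8 lower.

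**Figure D3:**
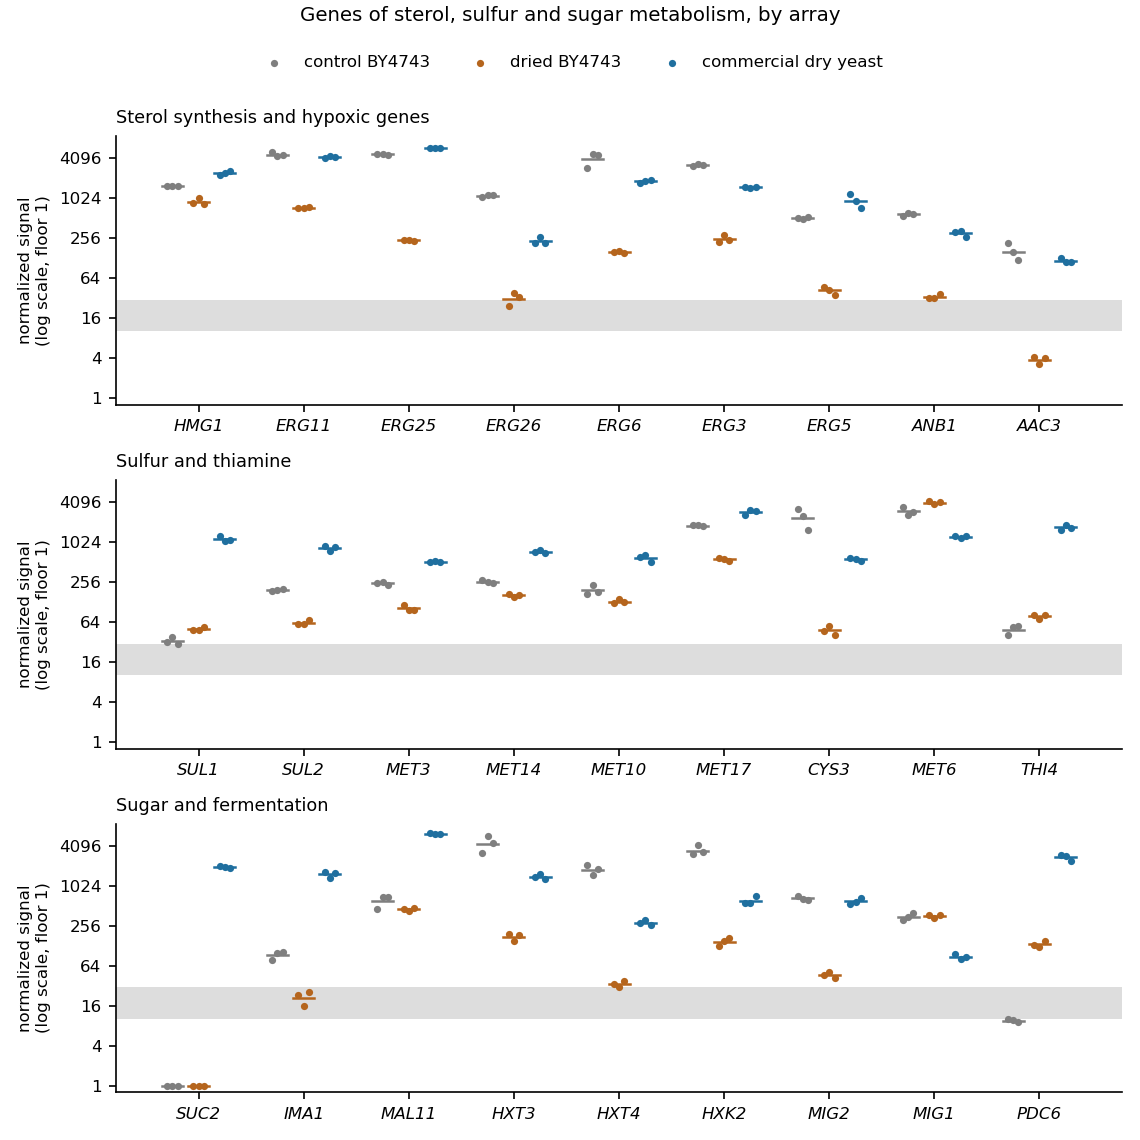
Normalized signal (log scale, signals under 1 drawn at 1) of 27 genes on each of the 9 arrays, with bars at the geometric mean of 3 arrays; the grey band spans the background of the arrays, 10.4 to 30.6. Commercial yeast lies above dried BY4743 for all genes shown but MET6 and MIG1, which lie below it.

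Transcripts of the cytosolic ribosome were higher over nearly the whole list. Of the 47 measured genes of the large subunit 40 were higher and 1 lower (median 1.81), and of the 33 of the small subunit 30 were higher and 1 lower (median 1.64). The 57 other genes written in the list had no probe set that names 1 gene. RPS22B read 135, 125 and 129 on the dried and 1649, 1773 and 1818 on the commercial arrays, a change of 3.75 (SE 0.103), while its near-identical paralog RPS22A was lower, with 808, 1038 and 812 against 610, 641 and 692 (change -0.44, SE 0.135). RPS14B changed by 3.41 (SE 0.137) and RPL37A by 3.34 (SE 0.507). RPL15A, the only lower gene of the large subunit, changed by -0.78 (SE 0.169). Paralogs that differ by few bases can share signal, so the values of single copies are uncertain. The list median of 1.77 stayed above 0 with spike-in scaling, where ribosome assembly went from 0.45 to -0.75 and translation factors from 0.51 to -0.7. Among the assembly factors, 26 of 38 of the small subunit processome and small nucleolar RNA proteins were higher and 3 lower, and 25 of 44 of the large subunit factors were higher and 8 lower. NOP58, a core protein of C/D snoRNPs, read 126 ± 16.5 in dried and 833 ± 113 in commercial cells, a change of 2.73. UTP15 of the processome changed by 2.8, GAR1 of the H/ACA snoRNPs by 2.46 and NOP56, the partner of NOP58, by 2.18. PRT1 and RPG1, subunits of initiation factor eIF3, changed by 2.14 and 2.01, and TIF4632, one of a pair of eIF4G genes, by -1.55. The subunits of RNA polymerases I and III did not share this direction, with 8 of 32 higher and 12 lower (median -0.17).

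Among heat shock genes more were higher than lower in commercial yeast, with quantile normalization. Of 41 heat shock genes 21 were higher and 7 lower, with a median of 0.33 that turned to -0.6 with spike-in scaling. SSA4, the HSP70 made only under stress, read 356, 337 and 382 on the dried and 3280, 3706 and 3583 on the commercial arrays, a change of 3.3 (SE 0.088, adjusted p = 1.27e-07). HSP10, the mitochondrial co-chaperonin, changed by 2.7 (SE 0.079), BTN2, which sorts misfolded proteins, by 2.3 (SE 0.118) and the constitutive HSP70 SSA2 by 2.19 (SE 0.212). SSA3, another stress HSP70, read 5508 ± 220 and 4615 ± 1209 (change -0.29, adjusted p = 0.48) and HSP26, a small heat shock protein, 3995 ± 123 and 3772 ± 78.9 (change -0.08, adjusted p = 0.322). Both read far less in growing BY4743, with 29.7 ± 12.5 and 414 ± 17.8. HSF1, the heat shock factor, was lower at -0.41 (SE 0.087).

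Among the 18 desiccation-linked genes the hydrophilin SIP18 read 3703, 3717 and 3128 on the dried and 3915, 3787 and 3538 on the commercial arrays, and 1.84 ± 0.483 in growing BY4743. The dry groups overlapped for SIP18 (change 0.1, SE 0.187, adjusted p = 0.673). GRE3, an aldose reductase, read 584, 595 and 536 against 3487, 3546 and 3348, a change of 2.6 (SE 0.074), and GRE2, a methylglyoxal reductase, changed by 1.61 (SE 0.083). The list median was 0.49, and -0.51 with spike-in scaling. HOR7 and DDR2, stress genes of small proteins, had the largest fitted changes of the list but scattered among the dried arrays. HOR7 read 146, 0.478 and 0.0 on these and 3969, 3637 and 3896 on the commercial arrays. DDR2 read 174, 68.4 and 0.6 against 1207, 2053 and 1076. CCW12, an abundant wall mannoprotein, was at background on all dried arrays (0.0111, 0.267 and 0.0) and read 3939, 4084 and 4361 on the commercial arrays, at least 143-fold higher. Its readings in growing BY4743 scattered, at 0.0222, 206 and 187.

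Storage sugar genes were more often higher with quantile normalization, with 12 of 21 trehalose and glycogen genes higher and 6 lower (median 0.38, and -0.9 with spike-in scaling). Of 4 trehalose synthesis genes 3 were higher and 0 lower (median 0.42), TPS1 being the gene not called. Of 11 glycogen synthesis genes 5 were higher and 5 lower (median -0.05). TPS1, the trehalose phosphate synthase, read 4017 ± 80.5 in dried and 3848 ± 85.3 in commercial cells (change -0.06, SE 0.069, adjusted p = 0.449), and NTH1, the neutral trehalase, 3285 ± 437 and 2787 ± 91.2 (adjusted p = 0.0813). ATH1, the acid trehalase, was lower at -0.48 (SE 0.079). All 3 genes of glycogen breakdown were higher (median 1.53), GPH1, the phosphorylase, among them at 1.53 (SE 0.109). SGA1, GAC1 and UGP1 of the whole list were higher at 2.36, 1.57 and 1.56. GLG1, one of the glycogenins that prime the chain, was lower at -1.62 (SE 0.064).

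Genes that move glycerol, water and salt across the membrane stood out among the osmotic genes. STL1, the glycerol symporter, read 311, 263 and 268 on the dried and 3336, 2835 and 3174 on the commercial arrays, a change of 3.47 (SE 0.159). AQY1, the water channel, read 78.5, 79.1 and 87.3 against 1176, 1253 and 1089, a change of 3.84 (SE 0.128). ENA5, a sodium pump gene of a tandem array of near-identical copies, read 98.8, 81.8 and 89.7 against 2254, 2365 and 1488, a change of 4.47 (SE 0.181). AQY1 and ENA5 were low in growing BY4743 too (71.3 ± 11.3 and 112 ± 8.74). DAK2, a dihydroxyacetone kinase, changed by 3.06 (SE 0.148). The sensors of the HOG pathway ran the other way, with SLN1 at -1.42 (SE 0.075) and SHO1 at -1.37 (SE 0.101). Of all 28 osmotic genes 12 were higher and 6 lower (median 0.17, and -1.04 with spike-in scaling). The 31 genes of oxidative defence were split, 11 higher and 8 lower (median 0.14, and -1.05 with spike-in scaling). CTT1, the cytosolic catalase, changed by 1.65 (SE 0.171), while GPX2, a peroxidase, changed by -2.25 (SE 0.184) and TRR1, the thioredoxin reductase, by -1.29 (SE 0.127).

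Sugar use differed most at sucrose and maltose. SUC2, the secreted invertase, read 0.756, 0.6 and 0.767 on the dried and 2043, 2011 and 1898 on the commercial arrays, at least 68.6-fold higher. SUC2 probe sets with shared probes read 112 ± 23.9 and 130 ± 14.9 in dried and 2488 ± 167 and 915 ± 19.2 in commercial cells, so the size of the difference depends on the probe set. IMA1, the isomaltase, was at background on the dried arrays (23.5, 16.0 and 26.2) and read 1697, 1371 and 1644 on the commercial arrays, at least 54.1-fold higher. MAL11, a maltose transporter, read 460, 427 and 487 against 6398, 6286 and 6286, a change of 3.79 (SE 0.162), and MAL31, whose probe set has shared probes, changed by 2.68 (SE 0.076). Not all members moved this way. MPH2, another transporter of the family, read 48.9 ± 12.4 in dried cells and was at background in commercial cells, at least 3.06-fold lower, and MAL33, an activator gene, was lower at -1.25 (SE 0.103).

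Of the 10 measured hexose transporter genes 8 were higher and none lower (median 1.54, and 1.22 with the floor at background). Of these 10 genes, 3 were at background in dried BY4743. The wider list of transport and sensing had a median of 0.79, and -0.14 with spike-in scaling. HXT3, of low affinity, read 196, 155 and 186 on the dried and 1397, 1571 and 1304 on the commercial arrays, a change of 2.99 (SE 0.211), and HXT4 read 34.3, 30.9 and 38.8 against 284, 312 and 265, a change of 3.05 (SE 0.15). HXK2, the hexokinase of glucose growth, read 129, 151 and 169 against 569, 568 and 727, a change of 2.05 (SE 0.165). Growing BY4743 read 4548 ± 1315 for HXT3, 1828 ± 324 for HXT4 and 3536 ± 600 for HXK2, more than either dry group. The repressors of glucose control were opposed, since MIG2 changed by 3.7 (SE 0.121) and MIG1 by -2.04 (SE 0.111), and SNF3, the high-affinity glucose sensor, was lower at -1.28 (SE 0.136). Glycolysis and fermentation had 14 of 34 genes higher and 5 lower (median 0.18, and -0.71 with spike-in scaling). PDC6, the minor pyruvate decarboxylase, read 131, 125 and 153 against 3013, 2949 and 2467, a change of 4.37 (SE 0.116), and was at background in growing BY4743 (9.65 ± 0.566). TDH3, the main glyceraldehyde phosphate dehydrogenase, had only a probe set that mixes related sequences and read 0.133, 2.82 and 0.0 against 211, 210 and 189, so its change is uncertain.

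Sulfate uptake and assimilation held several large changes. Yeast takes up sulfate, reduces it to sulfide and joins the sulfide to an activated homoserine to make methionine and cysteine. SUL1, a sulfate permease, read 49.7, 49.2 and 54.6 on the dried and 1275, 1085 and 1124 on the commercial arrays, a change of 4.5 (SE 0.114, adjusted p = 1.02e-07). The second permease gene, SUL2, read 60.1, 60.8 and 69.7 against 891, 748 and 866, a change of 3.72 (SE 0.1). Growing BY4743 read 33.1 ± 4.2 for SUL1 and 197 ± 7.79 for SUL2. Downstream, the sulfurylase MET3 changed by 2.33 (SE 0.093), the kinase MET14 by 2.18 (SE 0.076), the sulfite reductase subunits MET5 and MET10 by 2.23 (SE 0.251) and 2.17 (SE 0.149), and CYS3, which makes cysteine from cystathionine, by 3.56 (SE 0.245). In contrast MET6, the methionine synthase, was lower, with 4250, 3810 and 4169 against 1285, 1191 and 1282 (change -1.7, SE 0.113), as was MUP1, the high-affinity methionine permease, at -1.55 (SE 0.079). Of the 28 sulfur and methionine genes 17 were higher and 6 lower (median 0.56). SAM3, the S-adenosylmethionine permease, cannot be given 1 value, since its brightest plain probe set changed by 0.28 (SE 0.074) and another plain probe set read 41.7, 37.9 and 34.7 against 1403, 1136 and 1195, a change of 5.03 (SE 0.211).

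The other amino acid pathways were mixed, and 46 of 92 genes were higher and 26 lower in all (median 0.35, and -0.85 with spike-in scaling). Those counted as higher include the BY4743 marker loci LEU2, MET17 and LYS2. Of 8 lysine genes 5 were lower and 1, LYS2, was higher, with LYS1, the last enzyme of the pathway, at -2.07 (SE 0.094). ARO10, a decarboxylase of the Ehrlich pathway that turns amino acids into fusel alcohols, read 4361, 4084 and 4461 on the dried and 298, 278 and 279 on the commercial arrays, a change of -3.91 (SE 0.072). ARO9, the aromatic aminotransferase, was lower at -1.49 (SE 0.091), and BAT2, the cytosolic branched-chain aminotransferase, at -2.16 (SE 0.172). Growing BY4743 read 751 ± 16.7 for ARO10, 870 ± 21.1 for ARO9 and 2215 ± 596 for BAT2, with the dried means at 4302, 3403 and 5267.

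Amino acid permeases were lower in 12 and higher in 2 of 19 (median -0.57). AGP1, a broad permease, read 3081, 2790 and 2976 on the dried and 149, 173 and 199 on the commercial arrays, a change of -4.1 (SE 0.161). TAT1, for tyrosine and branched-chain amino acids, read 542, 472 and 523 against 40.8, 36.3 and 25.2, a change of -3.94 (SE 0.169). BAP3, for branched-chain amino acids, read 415, 475 and 368 and was at background on the commercial arrays (7.25, 11.0 and 1.72), at least 26.6-fold lower, and AGP3 was at least 13.9-fold lower. DIP5, for acidic amino acids, and BAP2 changed by -2.16 (SE 0.079) and -1.9 (SE 0.094), and GAP1, the general permease, by -0.57 (SE 0.084). The genes for using allantoin were split. DAL1, the allantoinase, was at background on the dried arrays and at least 7.63-fold higher in commercial cells, and DAL4, the allantoin permease, at least 5.61-fold higher, with DAL3, the ureidoglycolate lyase, at 1.74 (SE 0.141). DAL2, the allantoicase between those steps, read 579, 591 and 625 against 48.7, 42.8 and 38.6, a change of -3.79 (SE 0.147). MEP1, an ammonium permease, was higher at 2.36 (SE 0.115).

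Vitamin and nucleotide genes were more often higher. THI4, which makes the thiazole of thiamine, read 83.7, 72.3 and 83.1 on the dried and 1587, 1865 and 1713 on the commercial arrays, a change of 4.43 (SE 0.142), with 50.1 ± 8.47 in growing BY4743. The thiamine permease THI7 changed by 2.26 (SE 0.15), the thiamine regulator THI2 by 1.65 (SE 0.09) and BIO5, a permease of a biotin precursor, by 1.49 (SE 0.191). Of 19 vitamin genes 11 were higher and 4 lower (median 0.79, and -0.51 with spike-in scaling). Of 27 purine and pyrimidine genes 14 were higher and 6 lower (median 0.69, 0.24 with plain probe sets alone and -0.71 with spike-in scaling). The higher genes include URA3, which BY4743 lacks. URA7, a CTP synthase, changed by 2.59 (SE 0.117), and URA1, the dihydroorotate dehydrogenase, by -2.06 (SE 0.078).

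Metal uptake was lower for iron and opposed within copper and phosphate. High-affinity iron uptake pairs a multicopper oxidase with a permease, and siderophore transporters and wall mannoproteins add to it. FET3, the oxidase, read 974, 1196 and 1236 on the dried and 49.2, 50.1 and 62.7 on the commercial arrays, a change of -4.39 (SE 0.151). SIT1, a siderophore transporter, read 2471, 2049 and 2330 against 243, 154 and 197, a change of -3.55 (SE 0.164). FIT2, a mannoprotein that retains siderophores, changed by -3.38 (SE 0.263), whereas FIT1 of the same family read 138, 121 and 141 against 772, 759 and 820, a change of 2.56 (SE 0.108). Of 15 genes of high-affinity and siderophore uptake 11 were lower and 2 higher (median -1.55). AFT1, the activator of these genes, was lower at -1.89 (SE 0.101), and HMX1, the heme oxygenase, was higher at 1.69 (SE 0.166). Of the copper transporters CTR1 was at background in commercial cells, at least 2.63-fold lower, and CTR3 was higher at 2.5 (SE 0.126). ZAP1, the zinc regulator, was lower at -2.16 (SE 0.117). For phosphate 11 of 22 genes were lower and 5 higher. The high-affinity carrier PHO84 read 5717, 5759 and 5615 against 1553, 1715 and 1826 (change -1.75, SE 0.091) and the regulator SPL2 changed by -2.51 (SE 0.125), while the low-affinity carrier PHO90 changed by 2.83 (SE 0.085).

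Among the lists, histones and DNA replication held the largest block of lower genes (35 of 46 lower, 3 higher). Of the 32 genes of the replication origin and fork 26 were lower and 1 higher (median -1.55). MCM4, a subunit of the helicase that opens the origin, read 434, 453 and 492 on the dried and 86.1, 92.6 and 91.2 on the commercial arrays, a change of -2.35 (SE 0.089), and its partner MCM7 changed by -2.47 (SE 0.076). MCM6 read 135, 126 and 145 and was at background on the commercial arrays, at least 8.62-fold lower. RFA3, of the single-strand binding protein, read 1639, 1634 and 1385 against 94.2, 70.0 and 48.7, a change of -4.5 (SE 0.218), and POL1, the polymerase alpha subunit, changed by -2.35 (SE 0.265). RNR1, the large subunit of ribonucleotide reductase, was lower at -1.68 (SE 0.153). Of the 5 measured histone genes 4 were lower, HTB2 among them at -1.26 (SE 0.171), and HTB1 read 2990 ± 220 and 2779 ± 229 (adjusted p = 0.514).

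Cohesin is the ring that holds sister chromatids together. Of 9 genes of cohesin and its loading factors 8 were lower and none higher (median -2.61, and -2.11 with the floor at background). SMC3 read 592, 595 and 526 on the dried and 27.7, 18.3 and 13.0 on the commercial arrays, a change of -4.93 (SE 0.249), and its partner SMC1 read 716, 573 and 590 against 84.2, 91.0 and 83.1, a change of -2.86 (SE 0.193). PDS5, which stabilises the ring, read 264, 216 and 258 and was at background on the commercial arrays (1.51, 2.11 and 3.04), at least 15.6-fold lower. IRR1, the SCC3 subunit, read 308, 270 and 281 against 11.9, 2.11 and 10.1, a change of -5.5 (SE 0.583). On commercial arrays 2 and 3 the readings of SMC3 and IRR1 lay under background (22.4 and 16.54), so the size of both changes is uncertain. Growing BY4743 lay between the dry groups, with means of 235 for SMC3, 255 for SMC1 and 80.5 for IRR1. SCC4, the loading partner, did not pass the test (598 ± 66.1 and 679 ± 44.3, adjusted p = 0.16).

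**Figure D4:**
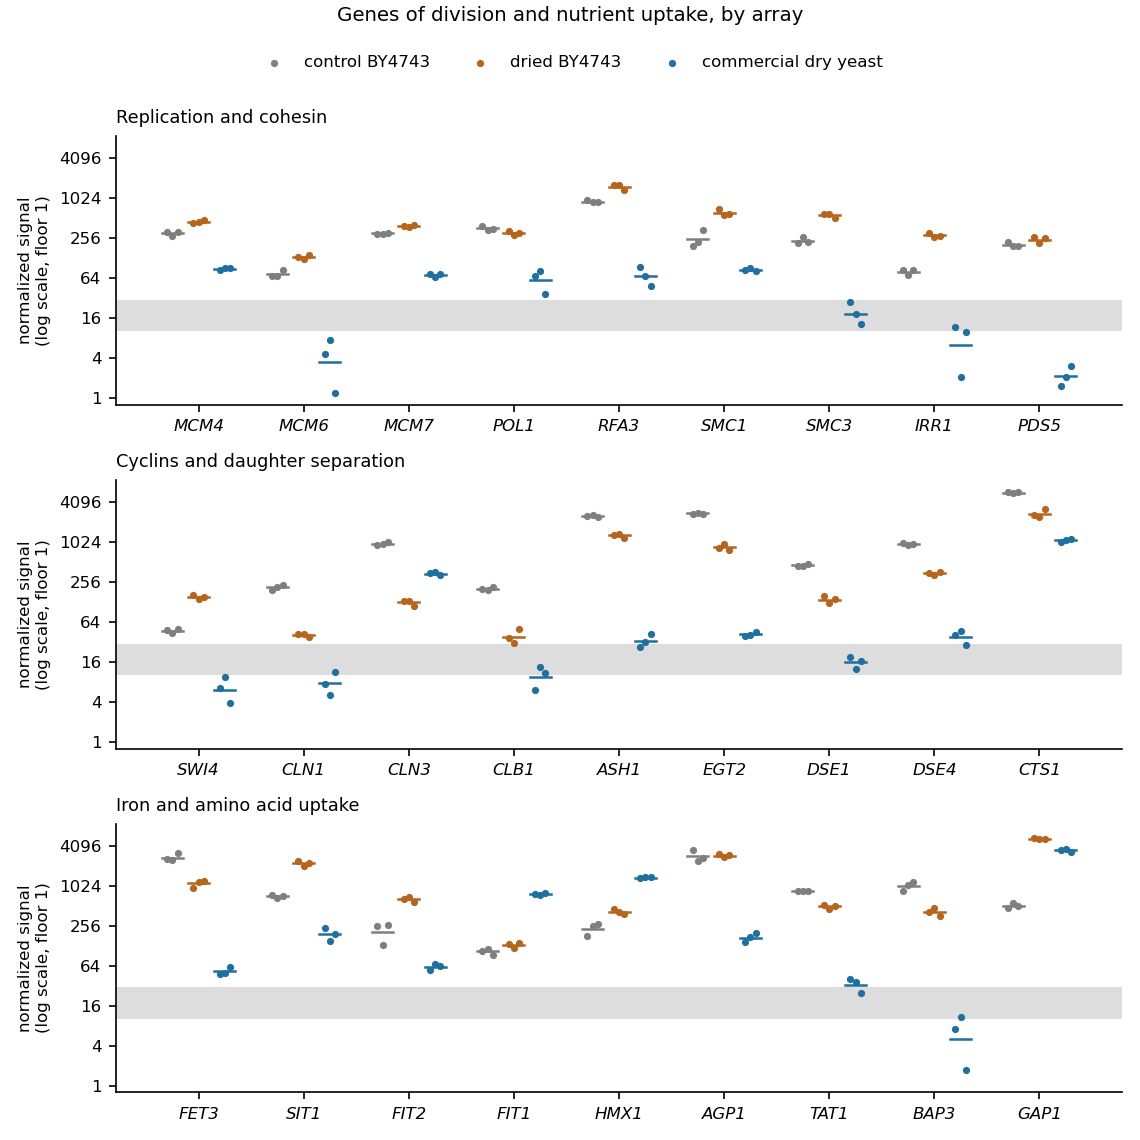
Normalized signal (log scale, signals under 1 drawn at 1) of 27 genes of replication, cohesin, the division cycle and nutrient uptake on each of the 9 arrays, with bars at the geometric mean of 3 arrays and the background range of 10.4 to 30.6 in grey. Commercial yeast lies below dried BY4743 for all genes shown but CLN3, FIT1 and HMX1, which lie above it.

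The cyclins were mixed. Of 20 genes of cyclins and mitosis 6 were higher and 8 lower (median -0.36), near the shares over all genes. SWI4, the DNA-binding part of the G1 transcription factor SBF, read 164, 142 and 154 on the dried arrays and was at background on the commercial arrays, at least 9.77-fold lower, and STB1, which acts with the G1 factors, was at least 12.7-fold lower. The G1 cyclin CLN1 was at least 2.63-fold lower and the mitotic cyclin CLB1 at least 2.48-fold lower, both from dried levels near background (41.3 ± 2.42 and 39.7 ± 9.89). CLN3, the cyclin that links growth to the start of the cycle, was higher, with 136, 135 and 114 against 348, 364 and 329 (change 1.44, SE 0.097). ACM1, an inhibitor of the anaphase-promoting complex, was at least 10.8-fold lower. Genes for the separation of the daughter cell were lower in 10 of 12 (median -1.33). EGT2, a glucanase-like protein of this step, read 846, 968 and 788 against 40.1, 41.4 and 45.6, a change of -4.35 (SE 0.098). The daughter-specific glucanase gene DSE4 changed by -3.19 (SE 0.161), DSE1 by -3.13 (SE 0.157) and the chitinase gene CTS1 by -1.32 (SE 0.105). ASH1, described above, is also made late in mitosis and localised to the daughter. All 5 genes of this set were highest in growing BY4743, where EGT2 read 2793 ± 79.4 and ASH1 2554 ± 110.

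Respiration and its organelle genome gave a split picture. Of 45 nuclear genes of respiration 10 were higher and 17 lower, and of 16 nuclear genes of the ATP synthase 9 were lower and 1 higher, ATP5, the oligomycin-sensitivity subunit, among the lower at -1.52 (SE 0.119). Of the 8 genes encoded in mitochondria 5 were higher and 1 lower (median 1.09, and -0.03 with spike-in scaling). COX3, a cytochrome oxidase subunit, read 90.5, 121 and 131 on the dried and 1058, 1133 and 822 on the commercial arrays, a change of 3.14 (SE 0.268). COX2 was at background on the dried arrays and at least 12.4-fold higher, COB, cytochrome b, changed by 1.74 (SE 0.148) and ATP6, an ATP synthase subunit, by 1.55 (SE 0.132). ATP8 was lower at -1.2 (SE 0.458), on a probe set designed with relaxed selection rules. COX1 read 3283 ± 383 and 3415 ± 391 by its brightest plain probe set (adjusted p = 0.758), while its other 2 plain probe sets changed by 3.58 (SE 0.105) and 2.11 (SE 0.1), so it has no single direction.

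The reading frames within the introns of COX1 were the reverse. AI1, a maturase and reverse transcriptase encoded in the first intron, read 499, 442 and 478 on the dried arrays and 0.444, 0.2 and 0.311 on the commercial arrays, at least 30.1-fold lower. AI2 and AI3, from the next 2 introns, were at background on all commercial arrays and at least 7.58-fold and 6.72-fold lower. They are neighbours and formed 1 of 3 runs of at least 3 adjacent genes whose fitted changes, with signals under 1 set to 1, were all at least 8-fold lower. Introns of the mitochondrial genome are known to vary between yeast strains, and whether the commercial strain has these introns was not tested. BI4, of an intron of cytochrome b, had 2 plain probe sets that differed, one at 0.68 (SE 0.157) and one at background on the dried and BY4743 control arrays and at least 6.59-fold higher in commercial cells.

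**Figure D5:**
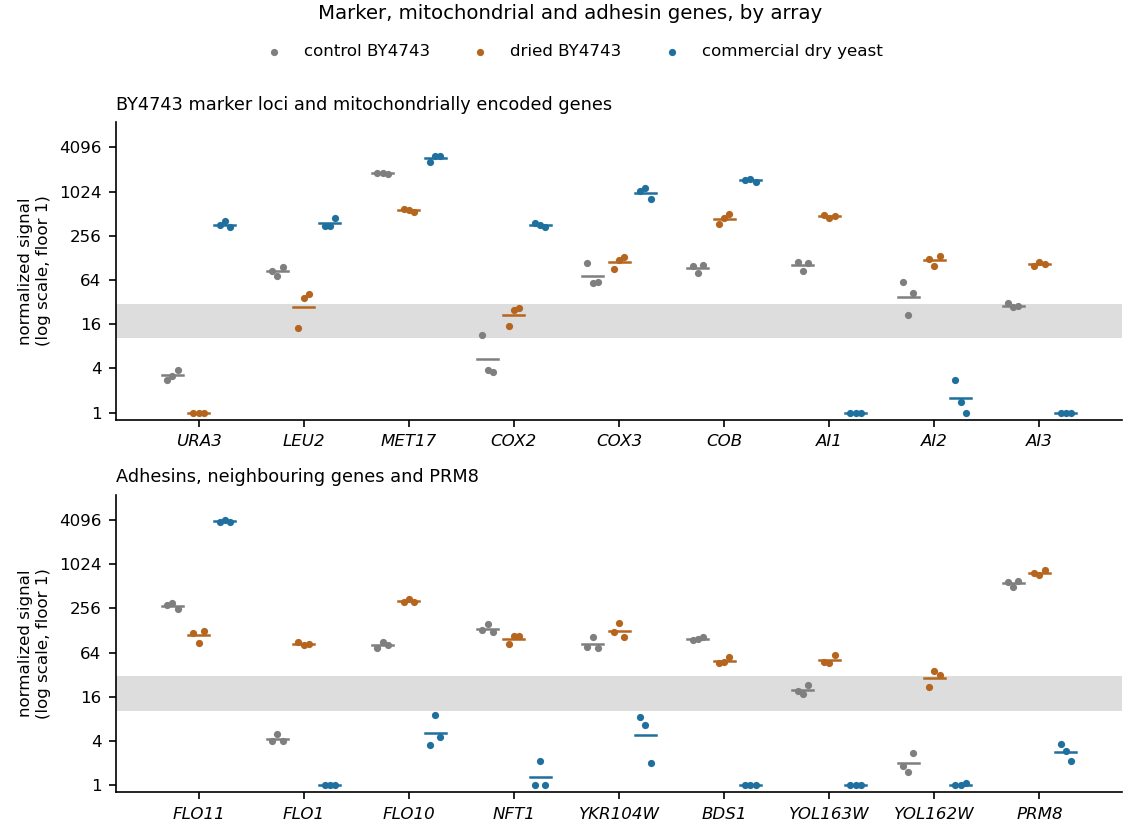
Normalized signal (log scale, signals under 1 drawn at 1) of 18 genes on each of the 9 arrays, with bars at the geometric mean of 3 arrays and the background range of 10.4 to 30.6 in grey. URA3 and COX2 lie at background in both BY4743 groups, and AI1, NFT1, YKR104W, FLO10, BDS1 and PRM8 lie at background in commercial yeast and above it in both BY4743 groups.

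Genes at background in one group were few. In commercial cells 49 genes (0.866% of 5656) were at background and above it on all dried arrays, and 90 (1.59%) were the reverse, against a lower background on the commercial arrays. Of the 49, 35 were also above background on all arrays of growing BY4743. PRM8, a pheromone-regulated membrane protein, read 774, 730 and 867 on the dried and 3.63, 2.91 and 2.17 on the commercial arrays, at least 50.3-fold lower. AIF1, the apoptosis-inducing factor, read 274, 271 and 288 against 5.96, 1.73 and 2.86, at least 17.7-fold lower. Both genes were well measured in growing BY4743, at 563 ± 50.7 and 246 ± 6.76. The 35 genes held 1 run of at least 3 neighbours. FLO10, a flocculin, read 314, 347 and 318 against 3.49, 8.93 and 4.54, and its neighbours NFT1 and YKR104W, parts of an ABC transporter of the MRP family that is split in the S288C reference, were at least 6.34-fold and 8.11-fold lower. All 5 further NFT1 probe sets were at background on the commercial arrays. The third run of genes with fitted changes at least 8-fold lower held BDS1, a sulfatase related to bacterial enzymes, at least 3.19-fold lower, with the transporter-like genes YOL163W and YOL162W, at least 3.24-fold and 1.84-fold lower, and YOL164W-A, whose arrays overlapped (75.1, 30.9 and 10.5 against 11.2, 3.04 and 1.27). No run of 3 adjacent genes was at least 8-fold higher. RCK2, a kinase gene, disagreed between probe sets, with 0.41 (SE 0.095) by the brightest and at least 11.0-fold lower by another.

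Of genes known to vary between strains, 13 of 26 were higher and 9 lower (median 0.24, -0.47 with spike-in scaling and -0.15 with the brightest probe set of any design). SUC2, IMA1, ENA5 and AQY1, described above, were among the higher. SEO1, a permease-like gene, was higher at 3.55 (SE 0.37) and UIP3, of the DUP family, lower at -3.41 (SE 0.2). Of the adhesins FLO11 was higher, and FLO1, on a probe set that mixes related sequences, was at least 5.41-fold lower. Among wall genes HSP150, a secreted mannoprotein, read 3666, 3265 and 3575 on the dried and 449, 482 and 376 on the commercial arrays (change -3.01, SE 0.21), and CRH1, which joins chitin to glucan, changed by -3.66 (SE 0.088), while CWP1, a wall mannoprotein, and GAS5, a glucan transferase, were higher at 2.04 (SE 0.155) and 2.3 (SE 0.149). RSB1, an exporter of sphingoid bases, was at background on the dried arrays and at least 17.8-fold higher, YCH1, a phosphatase, at least 7.94-fold higher and the uncharacterised YBR219C at least 7.53-fold higher.

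Markers of haploid and of sporulating cells were checked because a culture can hold either. Of 21 haploid mating genes 9 were higher and 4 lower (median 0.46, and -0.25 with spike-in scaling). That median depended on signals near background, since it was 0.03 without the dimmest 25% of probe sets and 0.0 with the floor at background, and it was 0.29 without dried replicate 2. The receptor gene STE2 read 28.3 ± 7.96 and 38.6 ± 3.42 (adjusted p = 0.116). BAR1, the protease that cleaves alpha factor, was at background in both groups, though its fitted change of 2.02 was called and is counted as higher. The other largest called changes went both ways, with HO at 1.78 and FUS1 at 1.46, and FUS3 at -2.21, AGA2 at -1.67 and MFA1 at -1.2. Of 32 genes of meiosis and sporulation 7 were higher and 11 lower (median -0.13). This median had no stable sign, with 0.47 for the values as deposited, -0.56 with the floor at background, -0.33 without dried replicate 1, 0.05 without dried replicate 3 and -0.27 without commercial replicate 2. IME1, the inducer of meiosis, read 726, 715 and 679 on the dried and 4777, 3447 and 3849 on the commercial arrays, a change of 2.5 (SE 0.135), and DIT1, a late gene of the spore wall, changed by -2.21 (SE 0.23). Autophagy genes were lower in 13 of 24 and higher in 1, ATG4, the protease that processes ATG8, among the lower at -2.34 (SE 0.214), while ATG8 itself read 5513 ± 306 and 5437 ± 203 (adjusted p = 0.832).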

How the data were processed

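The deposited values are linear intensities, 1 per probe set and array, scaled by the authors to a common trimmed mean of about 500, as the values show. Per the labels' protocols, labelled cRNA was hybridised, images were read with Affymetrix software of unstated version, with later steps named as a linear mixed model and a signed rank test. The values were quantile normalized over all 9335 probe sets, floored at 1 and taken to log2 (R 4.3.3, limma 3.58.1). One mean per group was fitted to all 9 arrays with eBayes (residual df 6), with Benjamini-Hochberg adjustment over 9275 probe sets and a threshold of 0.05. Only the model fit was run on simulated arrays, with independent noise and few changed probe sets, unlike these data. That run did not cover the quantile normalization.

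Platform annotation named 1 gene for 6504 probe sets, several for 328 and none for 2443, which gave 5656 genes. A gene stands on its brightest plain probe set, or on one with shared probes where no plain one exists (211 genes). Of 205 genes with more than 1 plain probe set, 15 were called in opposite directions. The background of an array is the 95th percentile of 19 mouse and Bacillus control probe sets. A probe set at background on every array of a group has only a bound there, so its fold is given as "at least", against that background. Named genes come from the 15 highest and 15 lowest changes measured in both groups and the 10 largest bounds each way. Both kinds had to be called, with groups that do not overlap. Added to these were up to 6 of the largest called changes per list and the marker loci. Other genes named beside them were chosen after their values were seen. Members and lists were chosen with earlier results of these data known. Alternatives changed the scaling, floor, filter, probe sets, arrays and variance model.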

Additional observations from a re-analysis of the deposited data

How the results depend on the processing

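The counts of 3072 probe sets higher and 3113 lower in commercial yeast stayed within 1.5 times under every alternative but the spike-in scaling, which gave 767 and 5288. Called probe sets were 49.7% higher with quantile normalization, 55.0% with the values as deposited, 56.1% with a common median (shifts of all probe sets of 0.13 and 0.16), 42.4% with the floor at background and 12.7% with spike-in scaling. Leaving out 1 array gave 2827 to 3066 higher and 2901 to 3095 lower. Same-numbered arrays did not deviate together (correlations of -0.006, -0.039 and 0.004), and with a replicate block 2973 were higher and 3052 lower. With a background from 28 control probe sets, chosen after seeing the data, 140 genes in place of 49 were at background in commercial yeast alone of these 2 groups, and 144 in place of 90 in dried BY4743 alone.

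List medians turned negative with spike-in scaling for sterol synthesis (-0.14), hypoxic genes (-0.95), ribosome assembly (-0.75), translation factors (-0.7), heat shock (-0.6), desiccation (-0.51), trehalose and glycogen (-0.9), osmotic genes (-1.04), galactose use (-0.58), the citrate cycle (-0.78), amino acids (-0.85), nucleotides (-0.71), vitamins (-0.51), haploid genes (-0.25), stationary phase genes (-0.91), oxidative defence (-1.05), fat use (-1.05), glycolysis (-0.71), hexose transport (-0.14), mitochondrially encoded genes (-0.03) and strain-variable genes (-0.47, and -0.15 with the brightest probe set of any design). The median of meiosis genes became 0.47 with the values as deposited and 0.5 with a common median. With an offset of 50 the medians of histones and replication (-0.91), cyclins, mitosis and cohesin (-0.36) and phosphate genes (-0.27) were over 1.5 times nearer to 0. Among named genes the spike-in scaling turned BI4 (-0.22), COX1 (-0.97), LYS2 (-0.23), RCK2 (-0.85), SAM3 (-1.09), SCC4 (-1.19) and SIP18 (-0.88). Of the other named genes 18 were weaker and 8 stronger with this scaling, and 162 stayed the same. ATG8 turned with the values as deposited (0.37) and a common median (0.4), TPS1 with the values as deposited (0.25) and BAR1 with the floor at background (-0.88). The cause of these turns, and which scaling is nearer to the RNA per cell, was not tested. Signal near background limits the genes given as bounds. Promoter motif alternatives were not run, since no promoter sequences were used here.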
